A study of Mus musculus with 69 samples.

Results

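The lungs of 20 mice were compared 1 day after exposure to either of 2 titanium dioxide nanomaterials (NMs), NRCWE-030 and NRCWE-025, at the lower doses of 18 and 54 µg. These were 20 of the 69 arrays of the series, with 10 arrays for each material and 5 for each material and dose, and every array held the RNA of 1 mouse. All animals were female C57BL/6 mice that received a single intratracheal instillation of the material dispersed in water with 2% serum, and lungs were taken after 24 h. The mice were 5 to 7 weeks old on arrival and acclimatised for 1 to 3 weeks, and the labels give no genetic modification and no other agent. The 5 day 1 controls received the vehicle and are shown beside both materials. Lung RNA (Cy5) shared each array with Universal Mouse Reference RNA (Cy3), so each level is a log2 ratio of lung to reference and each difference is NRCWE-030 minus NRCWE-025 at the same dose. The question was whether the lung transcriptome differed between the materials at doses below the highest, 162 µg.

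Inhaled or instilled particles are taken up by airway macrophages, and the lung is known to answer with chemokines, recruited neutrophils and acute phase proteins such as the serum amyloids. The lung also holds a circadian clock. Arntl (also called Bmal1) pairs with Clock or Npas2 and switches on the Per and Cry repressors, the Nr1d (Rev-erb) repressors and output factors such as Dbp through E-box sequences. The Nr1d repressors and the Ror activators then compete for elements in the Arntl gene, so Arntl is known to peak when Per2, Nr1d2 and Dbp are low. A whole-lung sample mixes all cell types, and fewer cells of a type cannot be told apart from less RNA per cell.

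The share of spots that the scanner software marked as well above background in Cy5 ran from 49.8% to 67% per array, and no spot was saturated. This share was 57.6% ± 6.6 (SD, n = 5) for NRCWE-030 against 60.9% ± 4.2 (SD, n = 5) for NRCWE-025 at 18 µg (exact permutation test, two-sided, p = 0.373), and 60% ± 4.3 against 60.6% ± 4.5 (SD, n = 5 each) at 54 µg (exact permutation test, p = 0.841). The smallest p that 252 splits allow is 0.0079, and over the 4 such tests (both dyes and doses) the adjusted p was at least 0.746. The lung markers Sftpc (surfactant of alveolar type 2 cells, log2 level 4.97 to 8.29), Scgb1a1 (club cells, 4.95 to 8.41) and Ager (alveolar type 1 cells, 4.26 to 5.91) were far above the reference on all 20 arrays. The arrays came from 10 slides, and the materials were not spread evenly over them: 3 slides held only NRCWE-025, 4 held only NRCWE-030 and 3 held both materials, with 8 arrays. Slide and material can therefore be separated only in part.

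Over both doses, 12 of 18712 genes differed between the materials (limma, Benjamini-Hochberg adjusted p under 0.05), which is 0.0641% of all genes tested. Of these, 5 were higher with NRCWE-030 (0.0267%): Tspan4, Per2, Dbp, Rhebl1 and Apbb3. The 7 lower genes (0.0374%) were Arntl, Nxph3, Eya1, Fbln1, Dtx4, Rftn2 and Spon2. The differences were small, between 1.23-fold for Rftn2 and 2.27-fold for Dbp. Before adjustment, 1393 genes had p under 0.05 where 936 are expected by chance, with 678 higher (3.62%) and 715 lower (3.82%). At 18 µg alone 2 genes were called, Dbp and Tspan4 (0.0107%), and at 54 µg 3 were, Arntl, Per2 and Tspan4 (0.016%). Without 1 array, the count of 12 ran from 5 (without replicate 1 of NRCWE-025 or replicate 2 of NRCWE-030, both at 54 µg) to 27 (without replicate 2 of NRCWE-030 at 18 µg), and Tspan4, Per2, Dbp, Arntl and Nxph3 stayed called in all 20 such fits. Once slide, or scan day, entered the fit of the 20 arrays as a fixed block, Tspan4 alone of the 12 stayed called. With slide as a random block 9 of the 12 stayed called. In the 8 arrays of slides with both materials, with slide as a fixed block, 0 did. The differences of others under the fixed block are given with the pairs within slides. An F-test over both doses called 6 genes (0.0321%), 5 of the 12 (Arntl, Dbp, Nxph3, Per2 and Tspan4) and Cirbp.

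**Figure D1:**
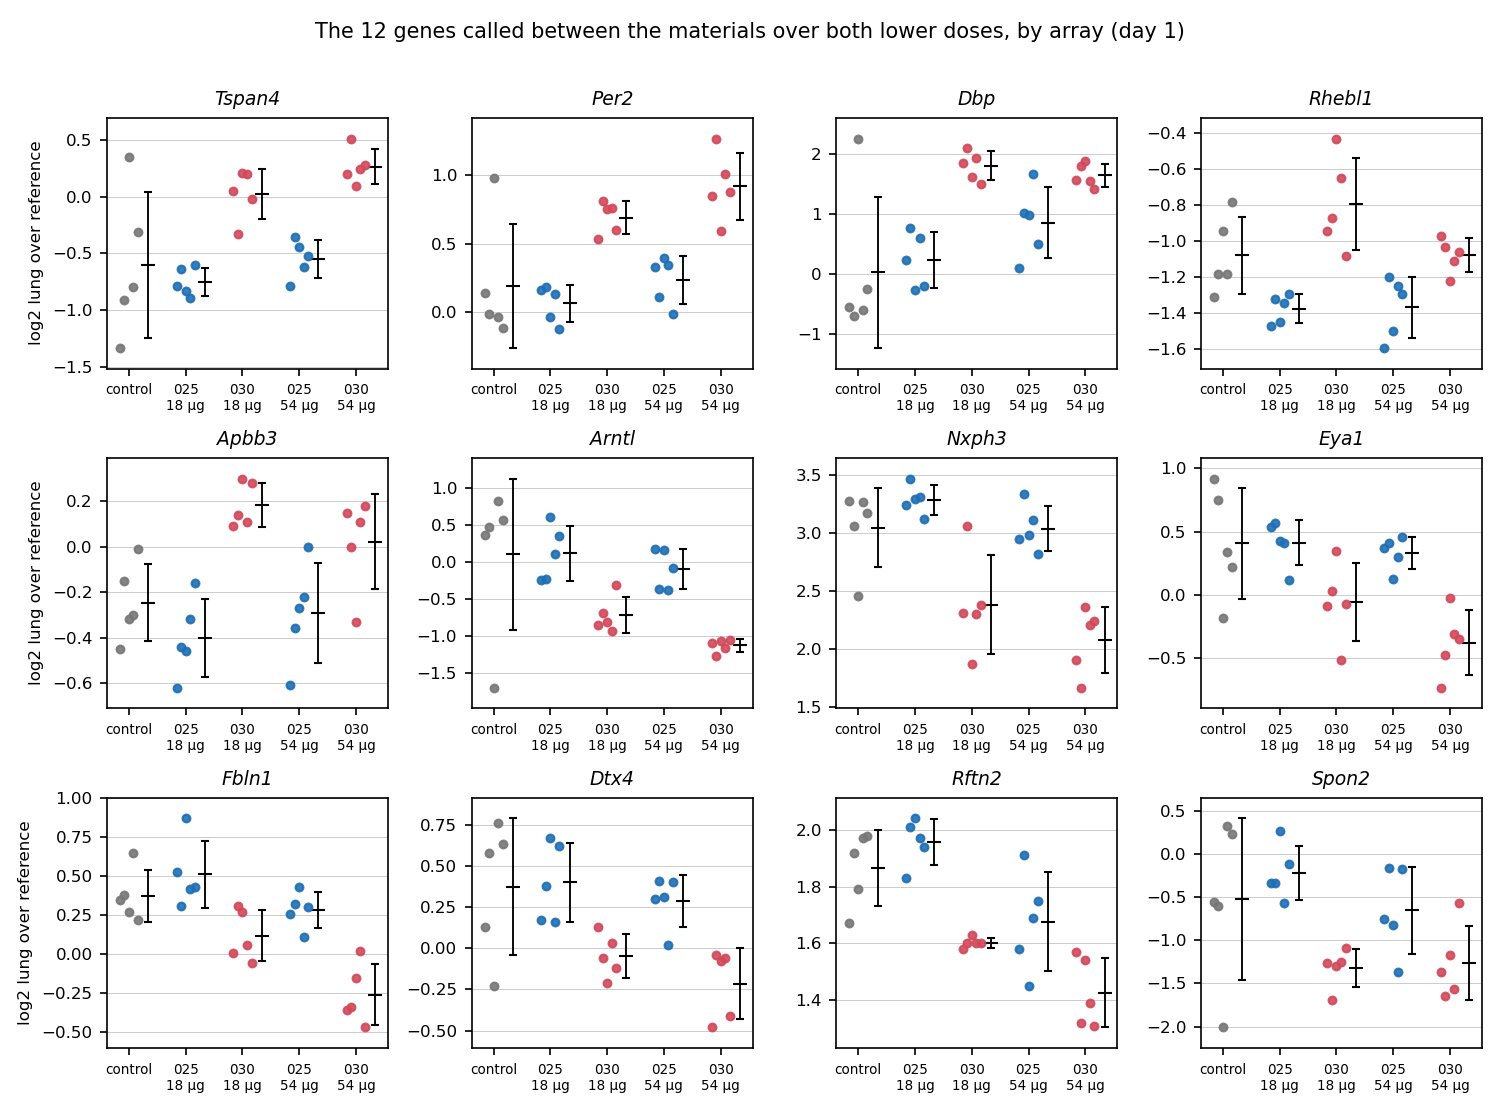
Log2 ratio of lung to reference (vertical axis) of the 12 called genes in the 5 vehicle controls (grey) and in the 5 mice of each dose of NRCWE-025 (blue) and NRCWE-030 (red), with the mean and SD of each group as a bar. All 10 red points lie above all 10 blue points for Tspan4 and Per2, and 1 control array stands apart from the other 4 for Dbp, Arntl, Per2 and Nxph3.

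Tspan4, a membrane protein of the tetraspanin family that is known as a marker of migrasomes, had the smallest p. At 18 µg its log2 levels were 0.05, -0.33, 0.21, 0.20 and -0.02 with NRCWE-030, and -0.79, -0.64, -0.83, -0.89 and -0.60 with NRCWE-025. At 54 µg they were 0.20, 0.51, 0.09, 0.24 and 0.28 with NRCWE-030, against -0.79, -0.36, -0.44, -0.62 and -0.52 with NRCWE-025. The materials did not overlap at either dose, and the lowest NRCWE-030 array of all 10 (-0.33) lay just above the highest NRCWE-025 array (-0.36). The mean difference was 0.79 ± 0.08 (SE; 95% confidence interval 0.63 to 0.95), or 1.73-fold, with a limma adjusted p of 4.19e-05. It was nearly the same size at 18 µg (0.77 ± 0.11, adjusted p 0.0138) and at 54 µg (0.81 ± 0.11, adjusted p 0.0065). The other 24 of the 25 tetraspanins tested gave no call, and the next by size, Tspan8 and Tspan2, had differences of -0.45 and -0.44 (adjusted p 0.577 and 0.533). Tspan4 is read by 1 probe.

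Per2, a repressor of the clock, was the other gene with all 10 arrays of a material beyond all 10 of the other (0.0107% of genes showed this). With NRCWE-030 the levels were 0.53, 0.81, 0.75, 0.76 and 0.60 at 18 µg and 0.85, 1.27, 0.59, 1.01 and 0.88 at 54 µg. With NRCWE-025 they were 0.16, 0.18, -0.04, 0.13 and -0.13, and 0.33, 0.11, 0.39, 0.34 and -0.02. The difference was 0.66 ± 0.08 (SE) over both doses (adjusted p 0.000449). Its 2 probes did not read alike: 1 gave 1.12 and the other 0.19, so the gene value, their median, lies between them.

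Dbp, an output factor of the clock that binds D-box sequences, had the largest difference of the 12. Its NRCWE-030 levels were 1.86, 2.11, 1.63, 1.93 and 1.50 at 18 µg, above all NRCWE-025 levels of 0.24, 0.78, -0.26, 0.61 and -0.19. At 54 µg they were 1.58, 1.81, 1.89, 1.55 and 1.43, while NRCWE-025 spread from 0.11 to 1.67 and overlapped with them through 1 array. The difference was 1.57 ± 0.24 (SE) at 18 µg (adjusted p 0.0202), 0.79 ± 0.24 at 54 µg (adjusted p 0.81) and 1.18 ± 0.17 over both (adjusted p 0.00338). The change of this difference with dose, -0.78 ± 0.34, did not pass (adjusted p 0.998).

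Arntl, the activator of the clock, was lower with NRCWE-030. The levels were -0.85, -0.69, -0.81, -0.93 and -0.32 at 18 µg and -1.10, -1.27, -1.07, -1.16 and -1.06 at 54 µg. For NRCWE-025 they were -0.25, -0.23, 0.60, 0.10 and 0.35, and 0.17, -0.37, 0.16, -0.38 and -0.08. The groups did not overlap at either dose, and the 5 arrays at 54 µg of NRCWE-030 lay closest together (SD 0.09). Arntl was lower by 0.93 ± 0.11 (SE) on the log2 scale, a 1.91-fold difference (adjusted p 0.000449), and the difference at 54 µg alone was -1.04 ± 0.16 (adjusted p 0.0207).

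The promoters of these genes are shown because E-box and ROR elements are the sites through which the clock is known to act on its members. RefSeq promoters of assembly GRCm38.p6, 250 bases before to 50 after a start, were found for 5 of the 13 genes called in any contrast and for 16 of the 19 clock genes listed. The window of one start of Tspan4 (chr7:141476130-141476429, plus strand) holds an E-box (CACGTG), and that of one start of Arntl (chr7:113207261-113207560, plus strand) holds the core of a ROR element (TAGGTCA, both strands searched). That of the clock output factor Tef (chr15:81802423-81802722, plus strand) also holds an E-box, as do both windows of Fbln1. Capitals mark the matches.
Tspan4: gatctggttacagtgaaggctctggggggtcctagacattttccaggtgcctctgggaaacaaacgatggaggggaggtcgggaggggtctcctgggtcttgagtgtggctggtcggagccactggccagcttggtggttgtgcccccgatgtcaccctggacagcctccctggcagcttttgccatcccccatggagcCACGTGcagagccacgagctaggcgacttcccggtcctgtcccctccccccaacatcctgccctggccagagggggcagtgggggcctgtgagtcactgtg
Arntl: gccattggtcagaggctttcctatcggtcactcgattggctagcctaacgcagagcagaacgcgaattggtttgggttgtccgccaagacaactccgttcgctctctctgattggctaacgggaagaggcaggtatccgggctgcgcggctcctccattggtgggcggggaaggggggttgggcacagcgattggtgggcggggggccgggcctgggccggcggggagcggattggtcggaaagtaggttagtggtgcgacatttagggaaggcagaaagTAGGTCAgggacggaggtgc
Tef: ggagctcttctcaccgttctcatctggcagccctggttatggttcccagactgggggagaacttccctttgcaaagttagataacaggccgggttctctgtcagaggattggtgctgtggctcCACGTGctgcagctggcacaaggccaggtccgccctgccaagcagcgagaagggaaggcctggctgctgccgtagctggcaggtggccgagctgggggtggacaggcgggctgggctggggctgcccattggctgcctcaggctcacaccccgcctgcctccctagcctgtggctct
Of all 32851 promoters, 7.15% hold CACGTG, 2.61% hold TAGGTCA and 2.32% hold the D-box TTANGTAA. The window of Dbp holds none of the 3, the other start of Tspan4 and that of Arntl hold none either, and a match is a description of the letters only.

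In the feedback loop of the clock as a whole, 15 genes were tested, and 1 was called higher (Per2) and 1 lower (Arntl). At an unadjusted p under 0.05, 6 were higher and 2 lower, against 3.62% and 3.82% of all genes. Among those that missed the threshold were Nr1d2, a repressor of Arntl (0.53 ± 0.11 (SE), adjusted p 0.0719), Per1 (0.70 ± 0.24, adjusted p 0.507) and Bhlhe40, a repressor that acts at E-boxes (0.49 ± 0.11, adjusted p 0.161). Bhlhe40 differed by 0.86 at 18 µg and by 0.11 at 54 µg. Clock, the partner of Arntl, was at -0.21 ± 0.10 (adjusted p 0.665). Of the 4 output factors Dbp was called, Hlf and Tef were at 0.51 ± 0.12 and 0.29 ± 0.06 (adjusted p 0.153 and 0.125), and Nfil3, which opposes Dbp, was at -0.09. The median difference over the feedback loop was 0.09, and over the output factors 0.40, against 0.0041 over all genes. Because the loop holds activators and repressors, its median mixes directions.

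**Figure D2:**
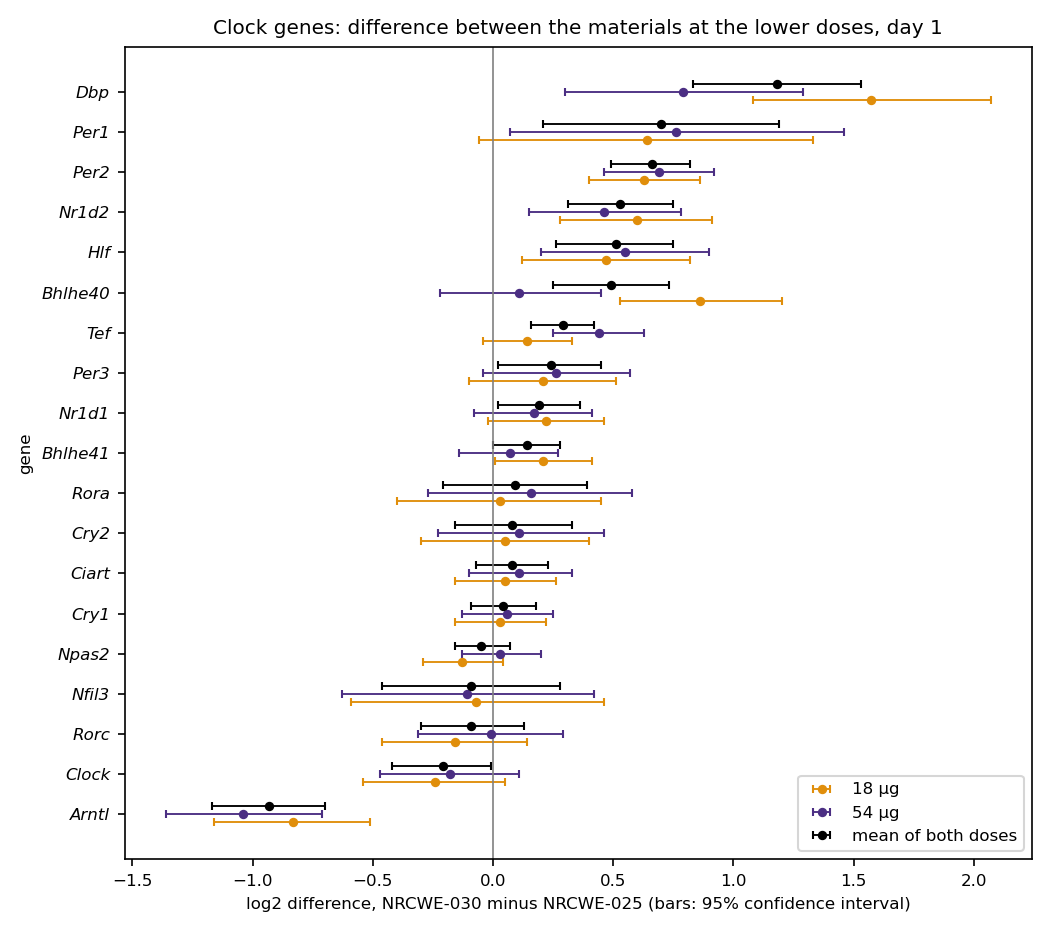
Difference between NRCWE-030 and NRCWE-025 on the log2 scale (horizontal axis) for the 19 clock genes tested, at 18 µg (orange), at 54 µg (purple) and as the mean of both (black), with 95% confidence intervals from limma. Dbp lies farthest to the right (1.18) and Arntl farthest to the left (-0.93), and for the mean of both doses 8 of the other 16 genes have intervals that reach 0 (Per2 lies at 0.66).

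The clock genes also differed between the vehicle controls. In control replicate 3 Arntl was at -1.70 against 0.36 to 0.82 in the other 4, Dbp at 2.26 against -0.69 to -0.25, Per2 at 0.98 against -0.12 to 0.14, and Nr1d2 at 2.01 against 0.14 to 0.40. That array lay beyond the other 4 controls for 14 of the 19 clock genes, where the other controls did so for 4 to 8. For 8 of the 12 called genes it lay beyond them on the side of NRCWE-030, and this was so for 0 to 3 in each of the other controls. It was not an outlier over all genes: it was beyond the other 4 for 37.5% of genes, while the other controls were for 34.3% to 52.8%. The day 1 arrays of its slide, which held NRCWE-025 and no NRCWE-030, had a median Cy3 (reference) signal of 166.5 to 173. On the other day 1 arrays this signal was 69 to 102. The part of this slide in the levels of control replicate 3 was not tested. For Arntl, Dbp and Nr1d2 this vehicle-treated lung lay farther from the other controls than any of the 10 NRCWE-030 arrays. Tspan4 was at 0.35 in it and at -1.33 to -0.31 in the others. The hour at which lungs were taken is not given in the sources used here, and its part in the differences was not tested.

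The calls of each material against vehicle changed with this array. With all 5 controls, 1 gene was called at 18 µg of NRCWE-030 (0.00534%; 1389 at an unadjusted p under 0.05) and 49 at 54 µg (0.262%; 26 higher, 23 lower), and 0% at either dose of NRCWE-025 (769 and 1003 unadjusted; the ordinary statistic also called 0). The single gene at 18 µg was Cyc1, a subunit of respiratory complex III (-0.53 ± 0.08 (SE), adjusted p 0.0219). Single arrays decided much of the count of 49, which fell to 15 without replicate 5 of NRCWE-030 at 54 µg, 23 to 25 without control replicate 2, 4 or 5 or replicate 2 of NRCWE-030 at 54 µg, 31 without replicate 1 or 3 of the latter, and 79 without replicate 3 of NRCWE-030 at 18 µg. Of the 12 genes, 0 were called against control at 18 µg of NRCWE-030 and 5 at 54 µg: Per2, Nxph3, Eya1, Fbln1 and Rftn2. Without control replicate 3, a fit chosen after seeing the data, the counts were 7 and 102 for NRCWE-030 and 0 and 0 for NRCWE-025, and 4 and 10 of the 12 genes were among them. Arntl then fell by 1.27 ± 0.16 at 18 µg and by 1.69 ± 0.16 at 54 µg of NRCWE-030 against the other 4 controls (adjusted p 0.000435 and 8.73e-06). For NRCWE-025 its values were -0.44 ± 0.16 and -0.65 ± 0.16 (adjusted p 0.999 and 0.372). Dbp rose by 2.33 ± 0.24 and 2.17 ± 0.24 with NRCWE-030 (adjusted p 2.95e-05 and 5.07e-05), and its values with NRCWE-025 were 0.76 ± 0.24 and 1.38 ± 0.24 (adjusted p 0.894 and 0.0703). The mean levels with NRCWE-025 lay between those of the 4 controls and those of NRCWE-030 in both genes. The direct comparison of the materials uses no control and does not change with this array.

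The other 8 called genes belong to no list in common. Nxph3, a secreted ligand of neurexins, had levels of 2.31, 3.06, 1.87, 2.30 and 2.38 at 18 µg of NRCWE-030 and 1.91, 1.67, 2.36, 2.21 and 2.24 at 54 µg. With NRCWE-025 they ran from 3.12 to 3.47 and from 2.82 to 3.34, above all NRCWE-030 arrays of the same dose. Nxph3 was lower with NRCWE-030 by 0.93 ± 0.12 (SE; adjusted p 0.000813). Spon2, a secreted matrix protein of the spondin family, was at -1.26, -1.69, -1.30, -1.25 and -1.09 at 18 µg of NRCWE-030, below all NRCWE-025 arrays (-0.57 to 0.27). At 54 µg the materials overlapped, with -1.65 to -0.57 for NRCWE-030 and -1.37 to -0.16 for NRCWE-025. The Spon2 difference of -0.86 ± 0.16 passed with an adjusted p of 0.0493, and it was not called in 18 of the 20 fits without 1 array. Fbln1, which codes for the matrix protein fibulin-1, was lower by 0.47 ± 0.08 (adjusted p 0.0214), and Eya1, a transcription cofactor of development, by 0.59 ± 0.10 (adjusted p 0.0214). Both overlapped between the materials at 18 µg and not at 54 µg. Dtx4, a ubiquitin ligase of the Deltex family, was lower by 0.47 ± 0.08 (adjusted p 0.0356) with no overlap at either dose. Its 3 probes gave differences of -0.47, -0.22 and -0.33, and the gene value is their median on each array. Rftn2, a raftlin of lipid rafts, was lower by 0.30 ± 0.06 (adjusted p 0.0431), and at 18 µg of NRCWE-030 its 5 arrays lay between 1.58 and 1.63. Rhebl1 is a small GTPase related to Rheb, and Apbb3 is an adaptor that binds the amyloid precursor protein. They were higher with NRCWE-030 by 0.43 ± 0.07 and 0.45 ± 0.08 (adjusted p 0.0263 and 0.0361). For both the difference was larger at 18 µg (0.58 and 0.59) than at 54 µg (0.29 and 0.31), but the change with dose did not pass (adjusted p 0.998 each). Against control, Rhebl1 was at 0.28 and 0.00 with NRCWE-030 at 18 and 54 µg. With NRCWE-025 it was at -0.30 and -0.29, and none of these was called.

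Of the 12 called genes, 5 did not overlap between the materials at both doses: Tspan4, Per2, Arntl, Nxph3 and Dtx4. Over all genes 10 showed this in the same direction (0.0534%). The remaining 5 were Igsf10 (-0.46 ± 0.09 (SE), adjusted p 0.0613), Rab11fip1 (-0.51, adjusted p 0.139), Padi4 (-0.25, adjusted p 0.126), Olfr585 (0.22, adjusted p 0.143) and Preb (0.19, adjusted p 0.146), and none of these was called. Just outside the threshold lay Rasl11a (-0.58 ± 0.11, adjusted p 0.0547), a small GTPase, and Map3k6, a kinase of the MAP kinase cascade (0.80 ± 0.15, adjusted p 0.0613). The genes with small p at 18 µg that were not called included Ndst1 (-0.68, adjusted p 0.0719), an enzyme of heparan sulphate synthesis, and Csta2 (-0.84, adjusted p 0.0719). At 54 µg Sertad1 was among them (0.67, adjusted p 0.162).

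Cirbp, a cold-inducible RNA-binding protein, went opposite ways at the 2 doses. At 18 µg its levels with NRCWE-030 were 1.85, 1.75, 2.28, 1.61 and 1.65, above the 1.24 to 1.61 of NRCWE-025, with the nearest arrays equal to 2 decimals. At 54 µg they were 0.83, 0.79, 0.79, 0.80 and 1.22, below the 1.36 to 1.71 of NRCWE-025. The differences were 0.39 ± 0.12 (SE; adjusted p 0.661) and -0.69 ± 0.12 (adjusted p 0.0697), and the F-test over both doses called it (adjusted p 0.0473). The test of 54 µg against 18 µg gave -1.08 ± 0.17 (adjusted p 0.101), and 0% of genes were called by it in limma, with 663 at an unadjusted p under 0.05 (the ordinary statistic called 0). Acsm5 was the only other gene with arrays that did not overlap at either dose and opposite directions, and it is named here after its values were seen. Among the other 13 heat shock and cold-inducible genes 0 were called. The heat shock gene Hspa1a differed by 0.11 at 18 µg and 0.94 at 54 µg (adjusted p 0.461 at 54 µg).

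**Figure D3:**
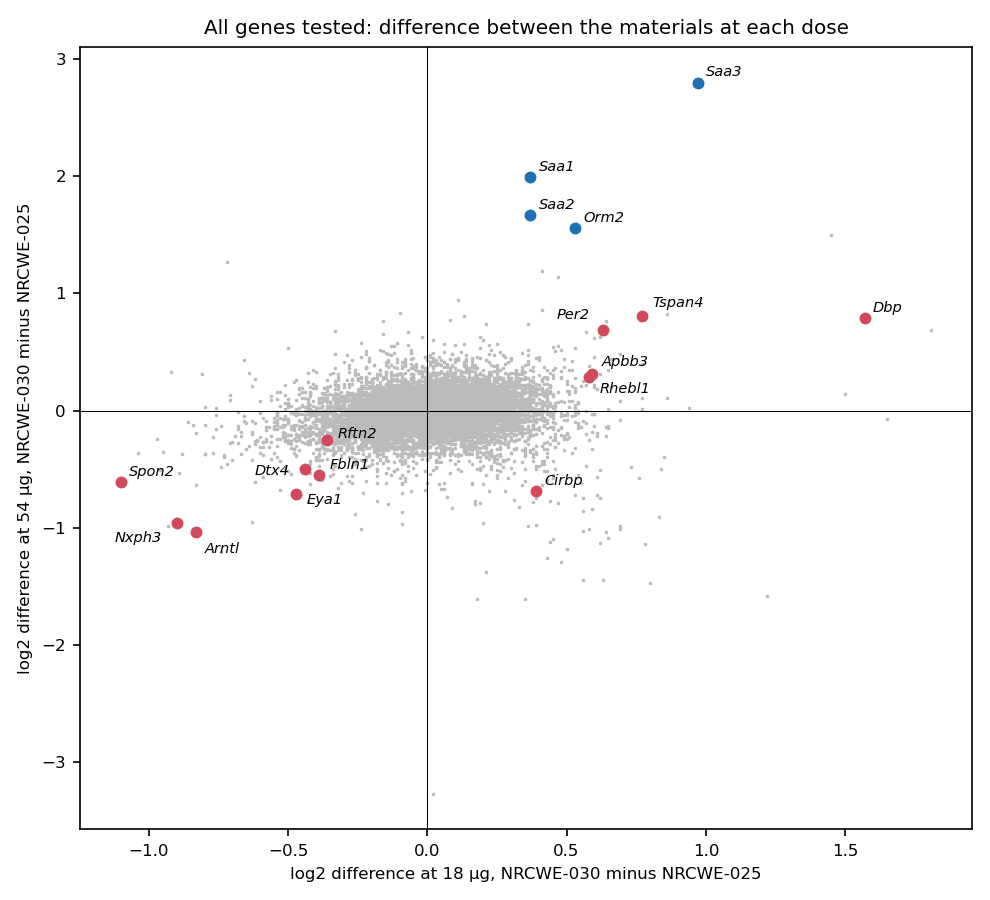
Difference between the materials on the log2 scale at 18 µg (horizontal axis) and at 54 µg (vertical axis) for each of the 18712 genes tested (grey), with the 12 called genes and Cirbp in red and 4 acute phase genes in blue. The 12 called genes lie in the quadrants of equal direction, Cirbp lies in the lower right, and the 4 acute phase genes lie at the top with differences at 54 µg of 1.56 to 2.80.

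The differences at the 2 doses had little in common over all genes. Their correlation across genes, which are not independent replicates, was 0.147, and 54.9% of genes had the same direction at both doses. All 12 called genes had, which the choice by the mean of both doses favours. The median 95% confidence interval of a gene reached 0.167 log2 units to each side for the mean of both doses and 0.236 for a single dose. Only 8 genes differed by more than 1 log2 unit over both doses (0.0428%), and of these only Dbp was called.

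Several acute phase genes differed widely at 54 µg in their means and were not called. Saa3, a serum amyloid made in lung, was at 1.69, 2.83, 4.22, -0.39 and 4.98 with NRCWE-030 and at -0.77, 1.72, 2.70, -1.63 and -2.71 with NRCWE-025. Within each material the mice thus spanned more than 5 log2 units, and the materials overlapped. At 18 µg the levels were -1.07, -4.17, 0.38, -2.57 and -2.06 against -3.24, -2.32, -2.82, -3.89 and -2.06, and the controls lay between -3.25 and -1.91. The difference over both doses was 1.89 ± 0.74 (SE; adjusted p 0.574), with a 95% confidence interval of 0.35 to 3.42 before any adjustment for the number of genes. Saa1 was at 2.16, 3.28, 4.34, 0.52 and 4.67 at 54 µg of NRCWE-030 and at 0.22, 1.87, 2.80, 0.31 and -0.17 with NRCWE-025 (difference over both doses 1.18 ± 0.44, adjusted p 0.542). Saa2 differed by 1.02 ± 0.35 and Orm2, an acute phase protein that binds drugs and lipids, by 1.05 ± 0.36 (adjusted p 0.507 each). The same replicate, number 4 of NRCWE-030 at 54 µg, was the lowest of its group for Saa1, Saa2, Saa3 and Orm2. Of the 20 acute phase genes tested 0 were called in any contrast between the materials, with 4 higher and 1 lower at an unadjusted p under 0.05 (3.62% and 3.82% of all genes), and the median difference was 0.28. Against control, 6 of the 20 were called at 54 µg of NRCWE-030 (0.262% of all genes) and 0 at 54 µg of NRCWE-025 (0% of all genes). The median changes of the 20 were 0.56 and 0.58, which mix members that went opposite ways. Saa3 changed by 5.28 with NRCWE-030 and by 2.48 with NRCWE-025, and Saa1 by 3.16 and 1.17. The fibrinogen genes Fgb and Fgg, known for expression in liver, had median levels of 0.56 and 1.29 with NRCWE-030. With NRCWE-025 these were 3.16 and 3.01. Of the 20 genes, 15 were higher with NRCWE-030 at 54 µg. The test between the materials itself did not pass, so a call in one material and not in the other does not show that they differ here.

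**Figure D4:**
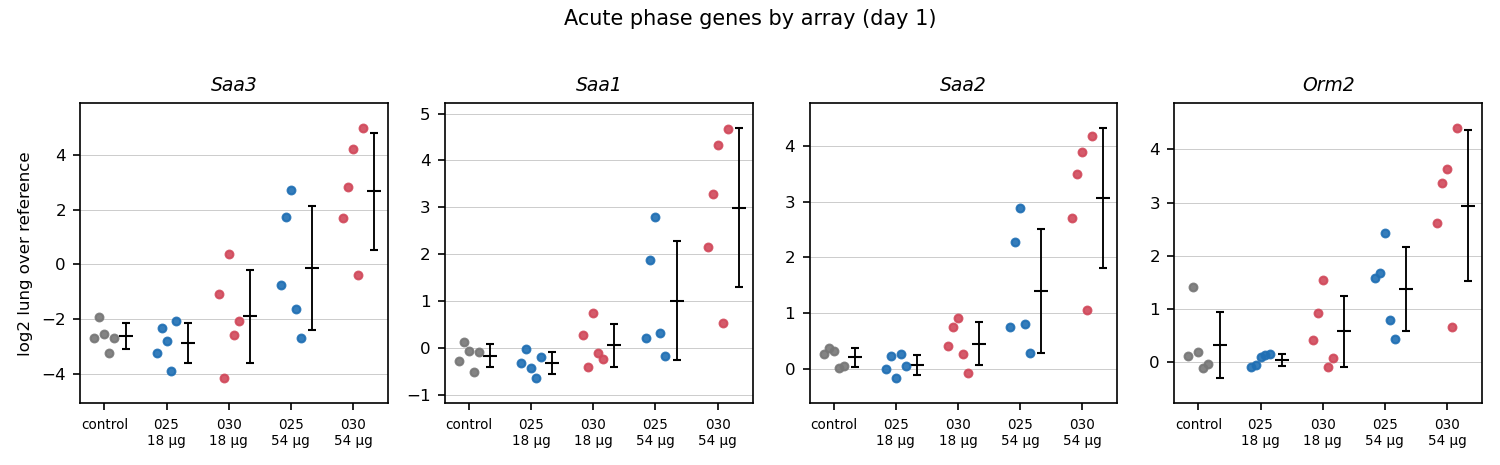
Log2 ratio of lung to reference (vertical axis) of Saa3, Saa1, Saa2 and Orm2 by array, with groups, colours and bars (mean and SD) as in the plot of the called genes. At 54 µg the NRCWE-030 arrays reach the higher levels, replicate 4 lies within the range of NRCWE-025 for each gene, and at both doses the materials overlap.

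Among the other gene lists, which hold inflammatory, stress, matrix and proliferation genes, Spon2 of the matrix list was the 1 gene called between the materials over both doses. For comparison with the counts of members below, 9718 of all 18712 genes were higher with NRCWE-030 over both doses. Of 25 chemokines 17 were higher with NRCWE-030 and 0 were called (median difference 0.10), with Ccl4 and Ccl7, which attract monocytes, at 0.62 ± 0.30 (SE) and 0.61 ± 0.34 (adjusted p 0.668 and 0.723). Of 23 cytokine and feedback genes 0 were called, and Csf2, Il1b and Socs3 were at 0.30, -0.26 and 0.25. Of 15 neutrophil genes 0 were called and 10 were lower, with the calprotectin gene S100a8 at -0.61 ± 0.21 (adjusted p 0.507). Macrophage activation genes (19), interferon-stimulated genes (18), metallothionein and zinc genes (4), glucocorticoid and fasting genes (12) and immediate early genes (16) gave 0 calls, with medians of 0.07, 0.09, 0.20, 0.11 and -0.03. Their members with the largest differences were the chitinase-like Chil3 (-0.48), the antiviral Bst2 (0.25), Mt2 (0.46), the iron-binding Lcn2 (0.64) and Ier3 (-0.29). So did the targets of Nrf2, the factor of the antioxidant response (15 genes, median -0.01), with Gsr at -0.44 and Hmox1 at 0.42 (adjusted p 0.606 and 0.577). Of 21 genes of the matrix and its proteases 9 were higher and 12 lower (median -0.05), and Timp1, an inhibitor of metalloproteinases, was at 0.80 ± 0.37 (adjusted p 0.667). Mitosis genes (19), DNA replication genes (19) and cytochromes P450 (10) gave 0 calls, with medians of -0.04, 0.12 and -0.08, and Kif20a, Gins2 and Cyp2a5 led them at -0.27, 0.20 and 0.79 (adjusted p 0.683, 0.862 and 0.82). Of the study's gene sets, bicluster-3, with chemokine genes, had 14 of 17 members higher and a median of 0.08, and bicluster-7, related to fibrosis, had 16 of 20 higher and a median of 0.06, with 0 called in each. Biclusters 1, 8 and 10 had medians of 0.00, 0.03 and -0.03 and 0 called. The study derived these sets from other lung experiments, and its other biclusters were not examined here.

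Markers of 12 cell types or tissues that a lung sample can hold gave no call either. Several lists had more members higher with NRCWE-030 at 18 µg than at 54 µg, and others had fewer. No gene passed the test of the change with dose. Of the red blood cell markers 0 of 7 were higher at 18 µg and 5 of 7 at 54 µg (medians -0.09 and 0.07). For the endothelium markers these were 3 and 6 of 7 (-0.08 and 0.07). Of all 18712 genes, 10145 were higher at 18 µg and 9046 at 54 µg. Of the fat markers 8 of 10 were higher at 18 µg and 0 of 10 at 54 µg (medians 0.13 and -0.35), of the heart muscle markers 10 and 2 of 13 (0.23 and -0.12), of the T and NK lymphocyte markers 9 and 2 of 10 (0.11 and -0.15), and of the ciliated cell markers 6 and 0 of 8 (0.09 and -0.23). The mean level of the fat markers per array ran from 0.84 to 2.71 with NRCWE-030 and from 0.78 to 2.49 with NRCWE-025 at 18 µg, and from 0.70 to 1.77 and from 0.96 to 2.51 at 54 µg. The brown fat marker Ucp1 was not well above background on any of the 20 arrays. Of the 8 B lymphocyte markers 4 were higher at 18 µg (median -0.01) and 0 at 54 µg (median -0.16; Ms4a1 -0.58 and Cd79b -0.62, adjusted p 0.998 and 0.945), with a mean level of 0.19 to 0.58 against 0.36 to 0.97 per array at 54 µg. Markers of alveolar type 1 cells had a median of -0.18 (Ager -0.24), and those of alveolar type 2 cells, ciliated cells, endothelium, red blood cells, skeletal muscle, thymus and T and NK lymphocytes had medians of -0.07 to 0.00. Of the 5 club cell markers 3 were higher and 2 lower, with a median of 0.43, and Bpifa1 led them at 1.25 ± 0.79 (SE) over both doses (adjusted p 0.778). Heart muscle markers ran from -0.16 to 3.48 per array with NRCWE-030 and from -0.03 to 3.62 with NRCWE-025. The part of these cell types in the called genes was not tested.

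Within slides the same genes were set side by side. The 3 slides that held both materials gave 4 pairs of arrays at a matched dose. Tspan4 was higher with NRCWE-030 in 4 of 4 pairs, by 0.56 to 0.80, as were Per2 (0.25 to 1.03) and Dbp (0.23 to 2.11). Arntl was lower in 4 of 4, with differences of -1.28 to -0.69, and Nxph3 too (-0.82 to -0.25). Of the 12 called genes 10 had all 4 pairs in the direction of their difference over the 20 arrays (83.3%), against 9.52% of all genes. The exceptions were Apbb3 and Spon2, each with 1 pair the other way, at 54 µg on the slide that held all 4 groups (-0.11 and 0.20). These 8 arrays are among the 20 of the test that chose the 12 genes, which favours this count, so it is a description and not a repeat. With slide as a fixed block 2 genes were called over both doses, and Tspan4 was the only one of the 12 among them (0.71, adjusted p 0.0488). With scan day as a block there were also 2, again with Tspan4 alone of the 12 (0.70, adjusted p 0.0262). With slide as a fixed block the differences of Arntl (-0.96, adjusted p 0.182), Dbp (1.22, adjusted p 0.396) and Per2 (0.71, adjusted p 1) were at least as large as without it, and that of Nxph3 was smaller (-0.61, adjusted p 1). The 8 arrays of these slides alone gave the same differences, so the block restates the pairs. Means over the 4 pairs were smaller than the 20-array differences for Apbb3 (0.18 against 0.45), Fbln1 (-0.25 against -0.47) and Dtx4 (-0.34 against -0.47). The same held for Rhebl1 (0.33 against 0.43) and Eya1 (-0.52 against -0.59). For Rftn2 and Spon2 they were -0.31 and -0.86, much as over the 20 arrays.

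**Figure D5:**
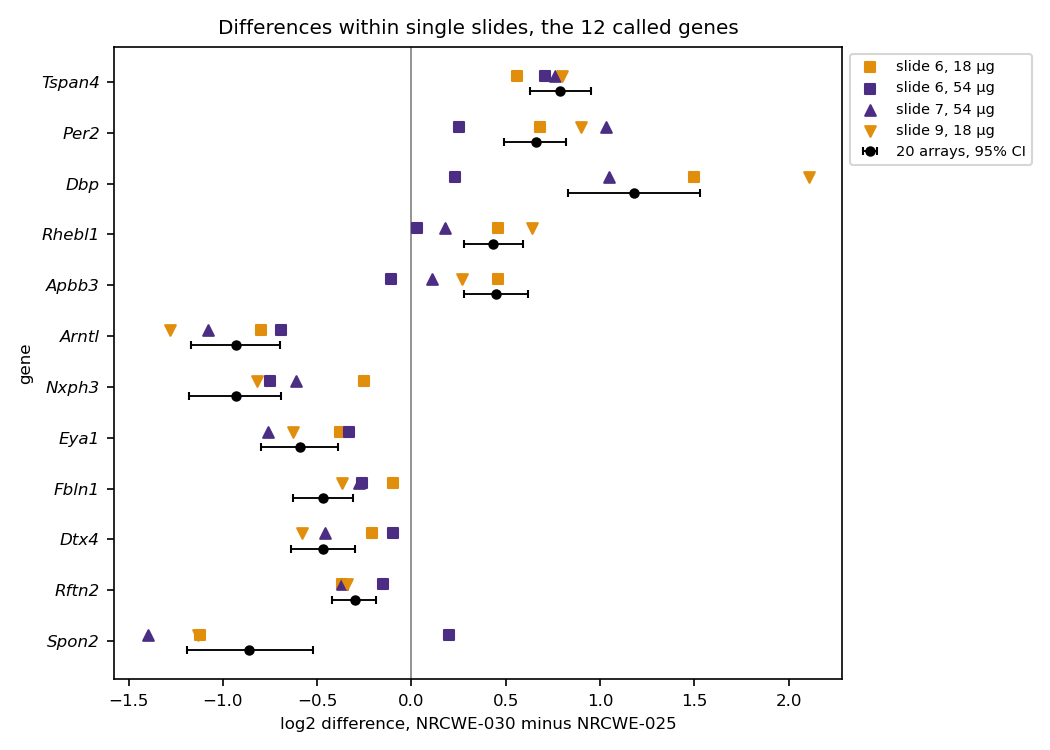
Difference between the materials on the log2 scale (horizontal axis) for the 12 called genes within single slides, 1 array of each material per symbol, with orange for 18 µg and purple for 54 µg. Black points with bars are the differences over all 20 arrays with 95% confidence intervals, and the 4 pairs fall on the same side of 0 for 10 of the 12 genes.

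At 162 µg, in 5 other arrays of each material on many of the same slides, 0% of genes were called between the materials in limma (1462 at an unadjusted p under 0.05; other tools were not run on this contrast). All 12 genes differed in the same direction there as at the lower doses, and 8 of the 12 had an unadjusted p under 0.05, against 7.81% of all genes. Tspan4 was at 0.63 ± 0.11 (SE), Arntl at -0.85 ± 0.17, Dbp at 0.77 ± 0.23 and Per2 at 0.49 ± 0.10. Earlier results of these arrays had already shown some of these genes at that dose, so this is no independent support.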

How the data were processed

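Two-colour arrays of 35 day 1 lungs were used, each with Cy5 for 1 mouse and Cy3 for the reference, with no dye swap. The deposited scanner files (Agilent Feature Extraction 11.0.1.1, per the file headers) hold each spot's median signal and local background as a linear intensity, uncorrected. Their deposited log ratio is log10 of Cy5 over Cy3, background-subtracted and dye-normalized, and deposited flags of 0 or 1 mark outlying, saturated and well-measured spots. The series matrix the authors deposited holds log2 values after LOWESS. Its array medians ran from -0.0453 to -0.00825, and its slope on loess ratios without background correction was positive and near 1 on each array, so its scale, centring and direction are known. It was used, like the log10 ratio, only as an alternative.

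Where the scanner software marked a local background as an outlier, the median of the unmarked ones on that array took its place. The reason was that without this step normexp fitted a background mean as low as -137.9 in Cy5 and -651.5 in Cy3. Both were in replicate 5 of NRCWE-025 at 162 µg, which is not among the 20 compared arrays. In those 20 the lowest means without the step were -11.37 and -3.67. With the step the lowest of all 35 arrays were -13.79 and -4.363. Normexp (offset 50) and loess within each array followed, in limma 3.58.1 (R 4.3.3). Flagged and control spots were left out (43379 of 45018 spots were not controls). The median was taken over spots and over the probes of a symbol. Of 41174 probes, 27479 (66.7%) matched a RefSeq symbol (GRCm38.p6, used only for names and promoter windows). Of 18749 symbols, 37 lacked a value and 18712 were tested. 

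One limma fit held the 4 groups of 5 arrays. Contrasts were the mean difference, that at each dose, their change with dose, and an F-test, two-sided, called at an adjusted p under 0.05. A second fit added the 5 controls. P-values given for groups of 5 are limma's unless named otherwise. Genes were named by rule: the smallest p (15 over both doses, 8 at each dose), all calls up to 10 per contrast, genes that do not overlap at either dose, the calls or largest differences (1 to 3) of each list, and 5 genes named in earlier results. Nr1d2, Per1, Clock, Hlf, Tef, Nfil3, Tspan2, Tspan8, Saa2, Hspa1a, Acsm5 and Cyc1 were named after their values were seen. The groups, genes and lists were chosen with earlier results of these data known, and the 162 µg comparison was added later. The fits were tested on simulated data with independent arrays and no slide effect, so that test does not cover slide. Plots used matplotlib 3.10.9 (Python 3.11.15). The number of arrays limits the precision.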

Additional observations from a re-analysis of the deposited data

Results flagged for a closer look

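In 135 groups of 5 arrays (26 named genes, and the share of spots well above background), 12 groups (8.89%) held 1 array farther from the rest than Dixon's 95% critical value of 0.71 of the range allows, and chance alone marks about 1 group in 20. Of the 12, 5 were control replicate 3. It was at -1.70 for Arntl (the other 4 controls 0.36 to 0.82), 2.26 for Dbp (-0.69 to -0.25), 0.98 for Per2 (-0.12 to 0.14), 2.46 for Nxph3 (3.06 to 3.28) and 2.33 for Map3k6 (0.88 to 1.28). In each it lay on the side on which the NRCWE-030 arrays differ from the NRCWE-025 arrays. Control replicate 2 was at 1.41 for Orm2 (-0.10 to 0.20).

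With NRCWE-030, replicate 5 of 54 µg was at 1.22 for Cirbp (0.79 to 0.83), and Rab11fip1, which codes for a protein of endosome recycling, was at 1.62 in replicate 5 of 18 µg (2.23 to 2.44) and at 1.57 in replicate 2 of 54 µg (2.12 to 2.15). With NRCWE-025, replicate 4 of 54 µg was at 0.02 for Dtx4 (0.30 to 0.41), replicate 1 of 18 µg at -0.70 for Bhlhe40 (-1.10 to -1.0) and replicate 2 of 18 µg at -0.28 for Olfr585 (-0.10 to -0.03). What sets these arrays apart was not tested.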

How the results depend on the processing

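The 12 calls over both doses kept their direction in each of 14 alternatives and in each fit without 1 array. Tspan4 stayed called in 13 of the 14, Nxph3 in 11, and Arntl, Per2, Dbp and Eya1 in 10. Rhebl1 and Dtx4 stayed called in 8, Fbln1, Apbb3 and Spon2 in 6, and Rftn2 in 2. Among the 20 fits without 1 array, the call was lost in 18 for Spon2, 16 for Apbb3 and 15 for Rftn2. It was lost in 13 for Dtx4, 9 for Rhebl1, 5 for Fbln1 and 3 for Eya1. Background as deposited kept 12 of the 12 calls and the series matrix 7. Blocks moved the counts most. Slide as a fixed block gave 2 genes over both doses and 0 at 18 µg, 54 µg and in the F-test, and scan day gave the same counts. The 8 arrays of mixed slides gave 0 over both doses, 0 at 18 µg, 2 in the F-test and 3 for the change with dose. Slide as a random block (correlation within slides 0.452) kept 9 of the 12 calls over both doses. It gave 6 at 18 µg, 7 at 54 µg, 12 in the F-test and 1 for the change with dose. In the fit of 25 arrays with the controls (correlation 0.372) it gave 29 and 405 against control for NRCWE-030 at 18 and 54 µg. One fit of all 7 day 1 groups gave 0 at either dose and 3 in the F-test. The ordinary statistic gave 5 over both doses, 1 at 18 µg, 1 at 54 µg and 28 against control for NRCWE-030 at 54 µg. The scanner log ratio gave 1 for the change with dose, the series matrix 1 at 54 µg, scaling between arrays 0 against control at 18 µg of NRCWE-030, and leaving out slide 6 (added later) 4 at 18 µg. The cause was not tested. Without 1 array, the count over both doses ran from 5 (without replicate 1 of NRCWE-025 at 54 µg, or replicate 2 of NRCWE-030 at 54 µg) to 27 (without replicate 2 of NRCWE-030 at 18 µg), with 20 without replicate 3 of NRCWE-030 at 54 µg, 6 without replicate 3 of NRCWE-025 or replicate 4 of NRCWE-030 at 18 µg, and 7 without replicate 1 of NRCWE-030 at 54 µg. At 18 µg it ran from 0 (without replicate 1 or 3 of NRCWE-025, or replicate 1 or 4 of NRCWE-030) to 7 (without replicate 2 of NRCWE-030), with 1 without replicate 5 of NRCWE-025 and 5 without replicate 5 of NRCWE-030 or replicate 2 of its 54 µg group. At 54 µg it ran from 1 (without replicate 1, 3 or 5 of NRCWE-025, or replicate 1, 2 or 4 of NRCWE-030) to 11 (without replicate 3 of NRCWE-030), with 5 without replicate 3 of its 18 µg group. It ran from 5 to 11 in the F-test (11 without replicate 2 of NRCWE-030 at 18 µg) and from 0 to 1 for the change with dose (1 without replicate 5 of NRCWE-030 at 54 µg). Against control it ran from 0 to 7 and from 15 to 102 for NRCWE-030 at 18 and 54 µg, with 7 and 102 without control replicate 3, from 0 to 0 at 18 µg of NRCWE-025 and from 0 to 1 at its 54 µg (1 without replicate 4). The fits without 1 array against control were added after seeing the data. No paired analysis was possible because the labels give no replicate numbers that groups share; arrays were matched by slide instead, as given above. The number of arrays and the uneven spread of the materials over slides limit what these data can separate.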

Other observations

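Genes named in this section were chosen after their values were seen. Cyp26b1, which codes for an enzyme that breaks down retinoic acid, had the largest difference at 54 µg, -3.27 on the log2 scale, with an adjusted p of 0.166 in limma, and 0.02 at 18 µg. With NRCWE-030 at 54 µg its levels were 0.77, 0.81, 0.00, 2.04 and 0.81, and with NRCWE-025 they were 3.70, 5.05, 4.80, 5.24 and 2.02, so that the materials overlapped (2.04 against 2.02). The controls ran from 1.28 to 4.55, and both materials at 18 µg from 1.47 to 5.53.

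Genes that are known for expression in liver varied widely between single mice. Alb (albumin) was at 4.54 and 3.18 in replicates 2 and 4 of NRCWE-030 at 18 µg and at 0.26 to 1.14 in the other 3. At 54 µg it was at 4.27 in replicate 2 of NRCWE-030 and 0.50 to 2.15 in the other 4, while with NRCWE-025 it was at 3.62, 2.85, 4.27 and 4.25 in 4 mice and at 0.33 in the fifth. The 5 controls lay between 0.16 and 0.66, and Alb was not called (difference over both doses, adjusted p 0.917 in limma). Mup1, a major urinary protein made in liver, was at 4.78 in replicate 2 of NRCWE-030 at 18 µg and at 4.52 in replicate 2 of 54 µg, and Fgb (fibrinogen beta chain) at 4.55 and 3.19. With NRCWE-025 at 54 µg the group medians were higher than with NRCWE-030, 3.54 against 0.61 for Mup1 (highest 5.35) and 3.16 against 0.56 for Fgb (highest 4.15). Control replicate 2 was at 2.67 for Mup1. The count of genes called between the materials over both doses was highest, at 27, without replicate 2 of NRCWE-030 at 18 µg. Other mice with high Alb went the other way. It was lowest, at 5, without replicate 2 of NRCWE-030 (Alb 4.27) or replicate 1 of NRCWE-025 (Alb 3.62), both at 54 µg. Without replicate 3 of NRCWE-030 at 54 µg (Alb 1.33) it was 20. The part of these genes in the comparison was not tested.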
